A study of Rattus norvegicus with 6 samples.

Results

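The day 7 and day 3 libraries of crushed spinal cord were compared cell class by cell class. All deposited cells of these 2 libraries were used, 16730 of the 30699 cells in the 6 libraries of the series: 9263 cells at day 3 and 7467 at day 7. Per the labels, both groups were SD animals labelled as rat, aged 6 to 8 weeks, whose cord was crushed with iridectomy scissors at thoracic level 10. They had neither the MPSS nor the PBS injection that 2 other libraries received. A 5-mm section centred on the injury was digested with collagenase and trypsin, strained at 40 µm and freed of red cells by lysis before droplet capture. The labels give 5 animals for each condition, but each day is 1 library whose cells carry no animal of origin. No test between days is possible, and every interval below is a 95% interval that covers counting error only, with no spread between animals. The gene names follow mouse conventions (7652 of 28615 are of the Gm, Rik or ENSMUSG form), although the labels say rat.

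After a cord injury, resident microglia and monocytes recruited from blood clear debris at the lesion. Microglia carry surface proteins such as P2RY12 and TMEM119, while recruited macrophages pass through an early wound state marked by arginase and later take up myelin lipid. Endothelial cells sprout and rebuild vessels, fibroblasts lay down collagen, ependymal cells lining the central canal divide and change shape, and oligodendrocyte precursor cells (OPC) divide. The days compared here fall within the subacute phase, when the first inflammatory wave gives way to lipid clearance and scar formation.

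Counts are unique molecular identifiers (UMIs), 1 per captured RNA molecule. The day 3 library was deeper, with 72515788 UMIs and a median of 6648 per cell against 30470794 and 3617 at day 7, while the median mitochondrial share was 2.64% and 2.53%. The libraries shared 87 cell barcodes, 0.939% of those of day 3 and 1.17% of those of day 7. For each class the UMIs of its cells were summed and scaled to 1000000 UMIs (CPM), which removes the total depth but not a change in the mix of cells. A gene was measured in a class where the 2 sums together held at least 50 UMIs, and differences of at least 2-fold were counted.

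Cells were assigned to classes by their UMIs of Tyrobp and C1qa (phagocytes, which join microglia and macrophages), Cldn5 and Flt1 (endothelial cells), Foxj1 (ependymal cells), Pdgfra (OPC), Col1a1 (fibroblasts), Rgs5 (pericytes) and S100a8 (neutrophils). Genes outside the gates followed them. The 9 other endothelial markers, among them Pecam1 and Cdh5, summed to 8938 and 12031 CPM in endothelial cells at days 3 and 7, against 57.7 and 91.7 CPM in phagocytes. The 8 other fibroblast markers, among them Col1a2 and Col3a1, summed to 11529.6 and 22095 CPM in fibroblasts. Markers of T and NK cells stayed at 5.30 and 8.42 CPM in phagocytes, and those of red cells at 2.30 and 5.95 CPM. Dendritic cell markers summed to 152 and 219 CPM there. Siglech, which also marks microglia, is among them at 83.9 and 126 CPM. Dendritic cells had no gate of their own, and their part in the phagocyte values was not tested. Cells that met both the Pdgfra and Col1a1 gates counted as fibroblasts. Cells that met the S100a8 gate with C1qa under 10 per 10000 UMIs were not counted as phagocytes, even where they met that gate. Other cells that met more than 1 gate (3.91% and 4.19%) may be doublets and were left out, and no doublet caller was run.

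Phagocytes were the largest class at both days, and their make-up differed more than their share. They made up 69.2% of cells at day 3 (68.3% to 70.2%) and 66.2% at day 7 (65.1% to 67.3%). The direction of this difference turned with the gate: the ratio of shares was 0.957 here, 1.10 with all gate minimums doubled, 1.13 with at least 2 UMIs each of Tyrobp and C1qa, and 1.03 when cells were first thinned to 1000 UMIs. Phagocytes with at least 2 UMIs, and 5 per 10000, of P2ry12, Tmem119, Siglech and Gpr34 together are called microglia-marked, and the others unmarked. Microglia-marked cells were 42.2% of phagocytes at day 3 (41.0% to 43.4%) and 66.3% at day 7 (65.0% to 67.7%). With every cell thinned to 1000 UMIs, so that depth was equal, the shares were 24.4% and 35.2%. Without thinning, the same marks were met by 0.313% and 0.426% of endothelial cells, at median depths of 3898 and 2482 UMIs. They were met by 5.31% and 13.7% of fibroblasts, 2.00% and 2.74% of OPC, 2.24% and 1.46% of neutrophils and 0.581% and 0.498% of ependymal cells.

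Among the smaller classes, neutrophils made up 1.45% of cells at day 3 (134 cells) and 2.76% at day 7 (206 cells), a ratio of 1.91. Endothelial cells were 13.8% and 15.7% (1279 and 1173 cells), and ependymal cells 3.71% and 2.69% (344 and 201 cells). Fibroblasts were 1.22% and 1.37% (113 and 102 cells), OPC 1.08% and 0.978% (100 and 73 cells) and pericytes 0.572% and 0.616% (53 and 46 cells). The intervals of fibroblasts, OPC and pericytes overlapped between days. Shares of dissociated cells depend on which cells survive digestion, and fewer cells of 1 class raise the share of all others. Pericytes had under 50 cells at day 7 and enter no gene comparison.

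**Figure D1:**
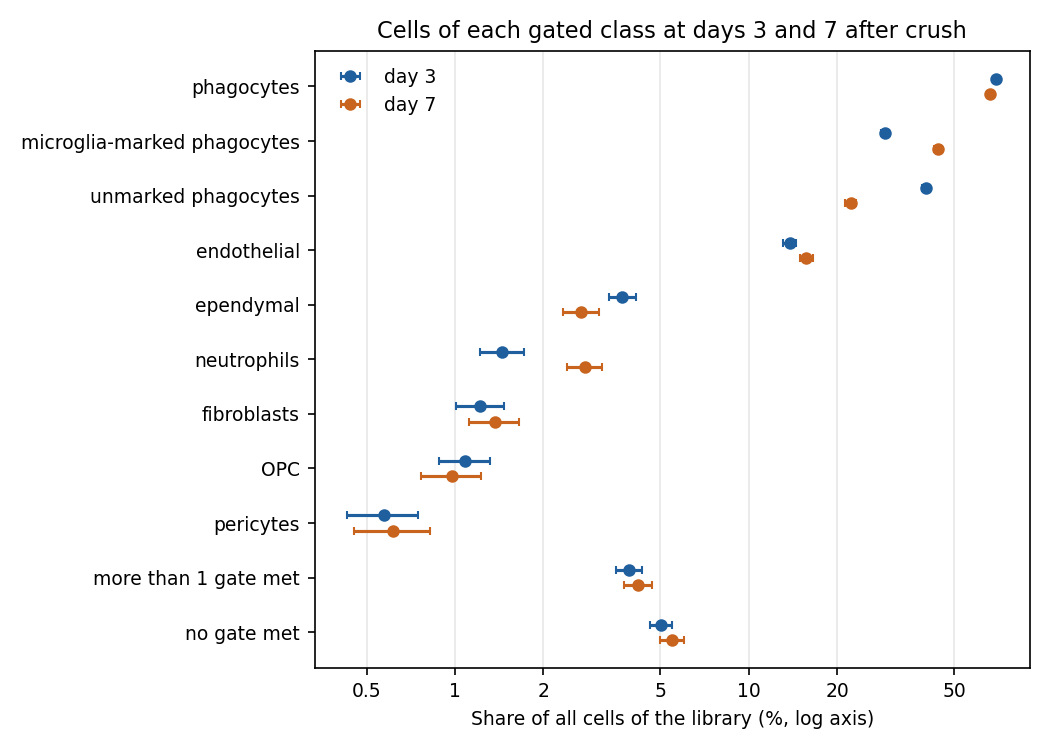
Share of all cells of each library (%, log axis) in each gated class at day 3 (blue) and day 7 (orange), with exact binomial 95% intervals that cover counting error only. Microglia-marked phagocytes went from 29.2% to 43.9% of cells and unmarked phagocytes from 40.0% to 22.3%, while the phagocyte total stayed between 66.2% and 69.2%.

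In phagocytes, the apolipoprotein genes Apoe, Apoc1 and Apoc4 and the immune genes Lag3, Ccl5 and Cst7 were higher at day 7, and Arg1, Hmox1 and Thbs1 were lower. Of 11681 genes measured, 391 (3.35%) were at least 2-fold higher at day 7 and 668 (5.72%) at least 2-fold lower, and the median log2 ratio over all genes was -0.15. These are differences of the whole class, and the different share of microglia-marked cells enters them. The median phagocyte held 7476 UMIs at day 3 and 4062 at day 7.

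Among the 12 named genes that were higher, the apolipoproteins stood out by level. Apoe, the main lipid carrier made by glia and macrophages, was 23944 CPM (23903 to 23984) at day 3 and 87174 CPM (87052 to 87295) at day 7, 3.64-fold higher (3.63 to 3.65). Apoc1 and Apoc4, smaller apolipoproteins encoded beside Apoe, followed the same direction. Apoc1 was 125 CPM (122 to 128) at day 3 and 907 CPM (895 to 919.8) at day 7, 7.26-fold higher (7.06 to 7.46). Apoc4 was 21.8 CPM (20.6 to 23.0) at day 3 and 169.6 CPM (164 to 175) at day 7, 7.79-fold higher (7.30 to 8.31).

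Lag3, an inhibitory receptor that binds MHC class II, was 20.1 CPM (19 to 21.3) at day 3 and 214 CPM (208 to 220.1) at day 7, 10.6-fold higher (9.96 to 11.3). It was carried by 2.43% of phagocytes at day 3 and 20.8% at day 7 after thinning to 1000 UMIs (12.6% and 45.7% unthinned). The same thinned share in endothelial cells was 0.313% and 1.53%. Ccl5, a chemokine that draws T cells and monocytes, was 21.7 CPM (20.5 to 23.0) at day 3 and 184 CPM (178 to 189) at day 7, 8.46-fold higher (7.93 to 9.02). Cst7, which encodes cystatin F, an inhibitor of lysosomal cathepsins, was 63.5 CPM (61.4 to 65.6) at day 3 and 351 CPM (344 to 359) at day 7, 5.53-fold higher (5.32 to 5.76). Its thinned share of cells was 5.55% and 22.6%, against 0.391% and 0.853% in endothelial cells.

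The growth factor Igf1 was 3.73-fold higher (88.1 and 329 CPM at days 3 and 7). Axl, a receptor kinase used in the uptake of dying cells, was 3.86-fold higher (30.5 and 118 CPM). Lgals3bp, a secreted galectin-binding glycoprotein, was 3.57-fold higher (101 and 361 CPM). The histone demethylase gene Kdm6b, the immediate early gene Egr1 and Scand1 completed the list, at 3.48-fold higher, 3.23-fold higher and 3.78-fold higher. Kdm6b and Scand1 were also higher in every other class measured, as given further on.

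The 12 named genes that were lower were led by Arg1, the arginase that competes for arginine in wound macrophages. It was 952 CPM (944 to 960.1) at day 3 and 19 CPM (17.3 to 20.9) at day 7, 49.99-fold lower (45.5 to 55.1). Arg1 was found in 24.7% of phagocytes at day 3 and 1.07% at day 7 after thinning (44.2% and 2.77% unthinned). Hmox1, which breaks down haem, was 1280.4 CPM (1271 to 1289.8) at day 3 and 207 CPM (201 to 213) at day 7, 6.19-fold lower (6.01 to 6.38). Thbs1, a matrix protein of early wounds, was 564 CPM (558 to 570.0) at day 3 and 85.5 CPM (81.7 to 89.4) at day 7, 6.60-fold lower (6.30 to 6.91). Fabp5, a carrier of fatty acids inside the cell, was 3411 CPM (3396 to 3427) at day 3 and 928 CPM (916 to 941) at day 7, 3.67-fold lower (3.62 to 3.73). It was the most abundant of the 12, so its difference weighed most in the summed UMIs.

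Ccl7, a chemokine for monocytes, was 8.58-fold lower at day 7 (398 and 46.4 CPM). The platelet-type chemokine Pf4 was 4.27-fold lower (759 and 178 CPM) over all phagocytes, but in microglia-marked cells alone its log2 ratio was 0.52, the opposite direction. The coagulation factor genes F7 and F10 were 8.90-fold lower and 7.34-fold lower (54.5 and 6.13 CPM, and 61.5 and 8.38 CPM). The lectin receptor gene Clec4d, the matrix protein gene Tgfbi, the calcium-binding protein gene S100a4 and the membrane protein gene Emp1 were 7.06-fold lower, 5.64-fold lower, 4.65-fold lower and 4.40-fold lower. Most of these genes are typical of recruited monocytes and early macrophages rather than of microglia.

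**Figure D2:**
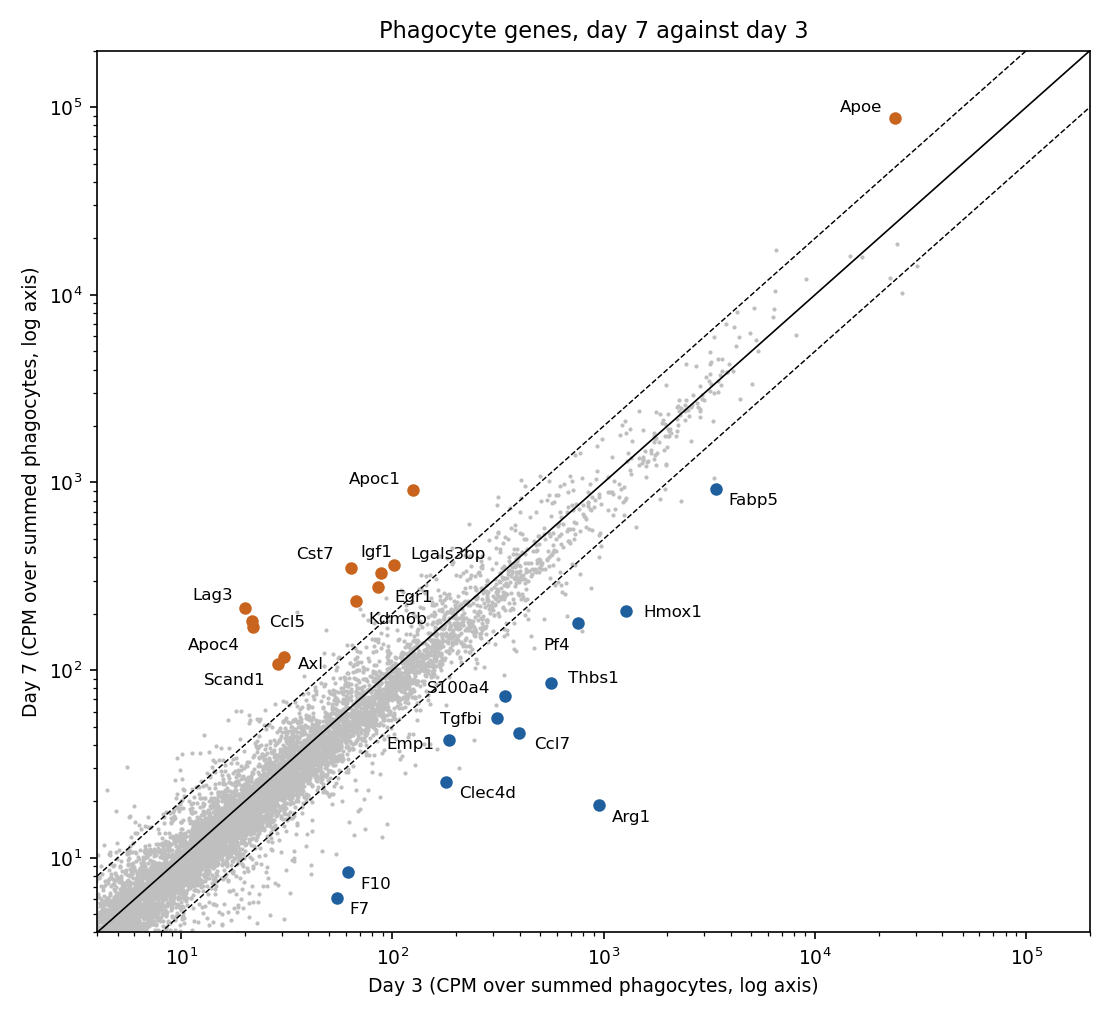
CPM of each gene over summed phagocytes at day 3 (x, log axis) and day 7 (y, log axis), for genes inside the plotted range. The solid line is equality and the dashed lines a 2-fold difference, and the named genes are orange where higher at day 7 and blue where lower. Arg1 lies farthest below the lines at 952 and 19 CPM, and Apoe is the highest point at 23944 and 87174 CPM.

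The curated gene lists show which functions moved together in phagocytes. Of 20 interferon response genes, 9 were at least 2-fold higher and none lower (median log2 ratio 0.85). Only 10 of the 20 had a phagocyte level at least 0.3 of that in the class with the highest level. Of these 10, 2 were at least 2-fold higher and none lower (median 0.73). Ifit2, Ifit3 and Usp18, all induced by interferon, were 5.55-fold higher, 5.17-fold higher and 3.13-fold higher (1.30 and 7.23 CPM, 4.46 and 23.1 CPM, and 6.00 and 18.8 CPM). Of 16 inflammatory cytokine and enzyme genes, 3 were at least 2-fold higher and none lower (median 0.73). These were the cytokine genes Il23a, Il6 and Il1a (2.74-fold higher, 2.59-fold higher and 2.44-fold higher), and Il1a stood at 109.7 and 267 CPM, while the other two stayed at 0.643 and 1.76 CPM and 1.82 and 4.72 CPM. Of 19 immediate early genes, 5 were at least 2-fold higher (median 0.65), among them Egr1, Jund and Ier2. Enzymatic digestion at warm temperature can itself induce these genes, and its part in the difference was not tested.

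Of 18 microglial identity genes, Cst3 alone was at least 2-fold higher, at 6563 CPM (6542 to 6584) at day 3 and 17399.9 CPM (17346 to 17454) at day 7, 2.65-fold higher (2.64 to 2.66). The median was 0.58, and P2ry12 stood at 278 and 262 CPM. Within microglia-marked cells alone none of the 18 was past 2-fold, 13 had a ratio below 1, and the median was -0.12. The disease-associated microglial list, 19 genes of the lipid-responsive microglial state, was split. Of its members 5 were at least 2-fold higher (Cst7, Axl, Igf1, Apoe and Lpl) and 2 lower (Ccl6 and Spp1), with a median of 0.34. Spp1, which encodes osteopontin, was 25704 CPM (25662 to 25746) at day 3 and 10269.9 CPM (10228 to 10312) at day 7, 2.50-fold lower (2.49 to 2.51).

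Lipid handling genes went both ways. Among 20, the lipoprotein genes Apoc1, Apoe and Lpl were at least 2-fold higher. The uptake receptor gene Cd36, the sterol sensor gene Nr1h3, the carriers Fabp4 and Fabp5 and the droplet coat gene Plin2 were at least 2-fold lower. Cd36 was 74.0 CPM (71.8 to 76.3) at day 3 and 14.2 CPM (12.7 to 15.8) at day 7, 5.22-fold lower (4.65 to 5.86). Nr1h3 was 4.64-fold lower (18.4 and 3.97 CPM) and Fabp4 4.06-fold lower (114 and 28.2 CPM). The list median was 0.10, and -0.37 over the 17 members whose phagocyte level was at least 0.3 of that in the class with the highest level. Of 17 cholesterol synthesis genes 1 was at least 2-fold higher (Insig1) and none lower (median 0.20). Of 24 lysosome genes 2 were at least 2-fold higher and none lower (median 0.04), so lysosomal genes differed little.

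Chemokine genes also went both ways, with 7 of 20 at least 2-fold higher and 7 lower. The 7 lower genes were Ccl2, Ccl6, Ccl7, Ccl9, Cxcl3, Pf4 and Ppbp, and the 7 higher were Ccl5, Ccl8, Ccl12, Cxcl1, Cxcl2, Cxcl9 and Cxcl13. Ppbp, a platelet-type chemokine, was 26.7-fold lower (5.89 and 0.220 CPM). Cxcl13, which draws B cells, was 0.0714 CPM (0.0195 to 0.183) at day 3 and 6.00 CPM (5.03 to 7.09) at day 7, 84.0-fold higher (32.1 to 313). Cxcl9 was 28.8-fold higher (0.107 and 3.09 CPM). The day 3 sums of these 2 genes held 4 and 6 UMIs, and 1 cell held 21.3% of the Cxcl13 UMIs of day 7.

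The list of wound macrophage and alternative activation genes had 18 measured members with a median of -0.55, 7 of them lower by 2-fold or more and 1 higher. Besides Arg1, Thbs1 and Tgfbi, they were Chil3, F13a1, Fn1 and Msr1. The gene that was higher was Retnla, a secreted product of alternatively activated macrophages. Retnla had no UMI at day 3 and 68 at day 7, at least 56.0-fold higher against a floor of 3 counts at day 3, but 1 cell held 48.5% of them. Of 15 iron and haem genes 4 were at least 2-fold lower (Hmox1, the haem transporter gene Slc48a1, the ferritin gene Ftl1 and Steap3) and 1 higher (Lcn2, a neutrophil granule gene). Neutrophil markers summed to 117 and 439 CPM in phagocytes, and their part in Lcn2 was not tested. Of 15 matrix remodelling genes 5 were lower and 2 higher. The protease inhibitor gene Timp1 was 15.7-fold lower (27.0 and 1.72 CPM), and the plasminogen activator gene Plau was 3.52-fold higher (12.8 and 45.1 CPM).

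Of 13 complement genes 3 were at least 2-fold higher (Cfb, C3 and C4b) and 1 lower (Cfp), with a median of 0.52. Over the 8 members with a phagocyte level at least 0.3 of the top class, the median was -0.26. Cfb was 0.553 CPM (0.376 to 0.785) at day 3 and 3.57 CPM (2.84 to 4.44) at day 7, 6.45-fold higher (4.22 to 10.1). Of 17 antigen presentation genes H2-Q7 alone was at least 2-fold higher. Among 20 glycolysis and hypoxia genes 6 were at least 2-fold lower and none higher (median -0.71), and the glycolytic enzyme gene Pgam1 was 521 CPM (515 to 527) at day 3 and 187 CPM (181 to 193) at day 7, 2.79-fold lower (2.70 to 2.88). The 22 nuclear genes of oxidative phosphorylation had none past 2-fold and a median of -0.30. Heat shock genes had 1 of 15 higher and none lower (median 0.01). Of 13 glucocorticoid receptor target genes 1 was higher and 2 lower (median 0.13).

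Cell cycle genes were lower in phagocytes. All 20 genes of the G2 and M phase list were at least 2-fold lower at day 7 (median -2.02), and 13 of 20 S phase genes were (median -1.13). Plk1 and Bub1, kinases of mitosis, were 6.91-fold lower and 7.02-fold lower (9.14 and 1.32 CPM, and 3.71 and 0.529 CPM). A UMI of Mki67 or Top2a was found in 11.8% of phagocytes at day 3 and 3.50% at day 7, and in 2.84% and 1.01% after thinning.

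**Figure D3:**
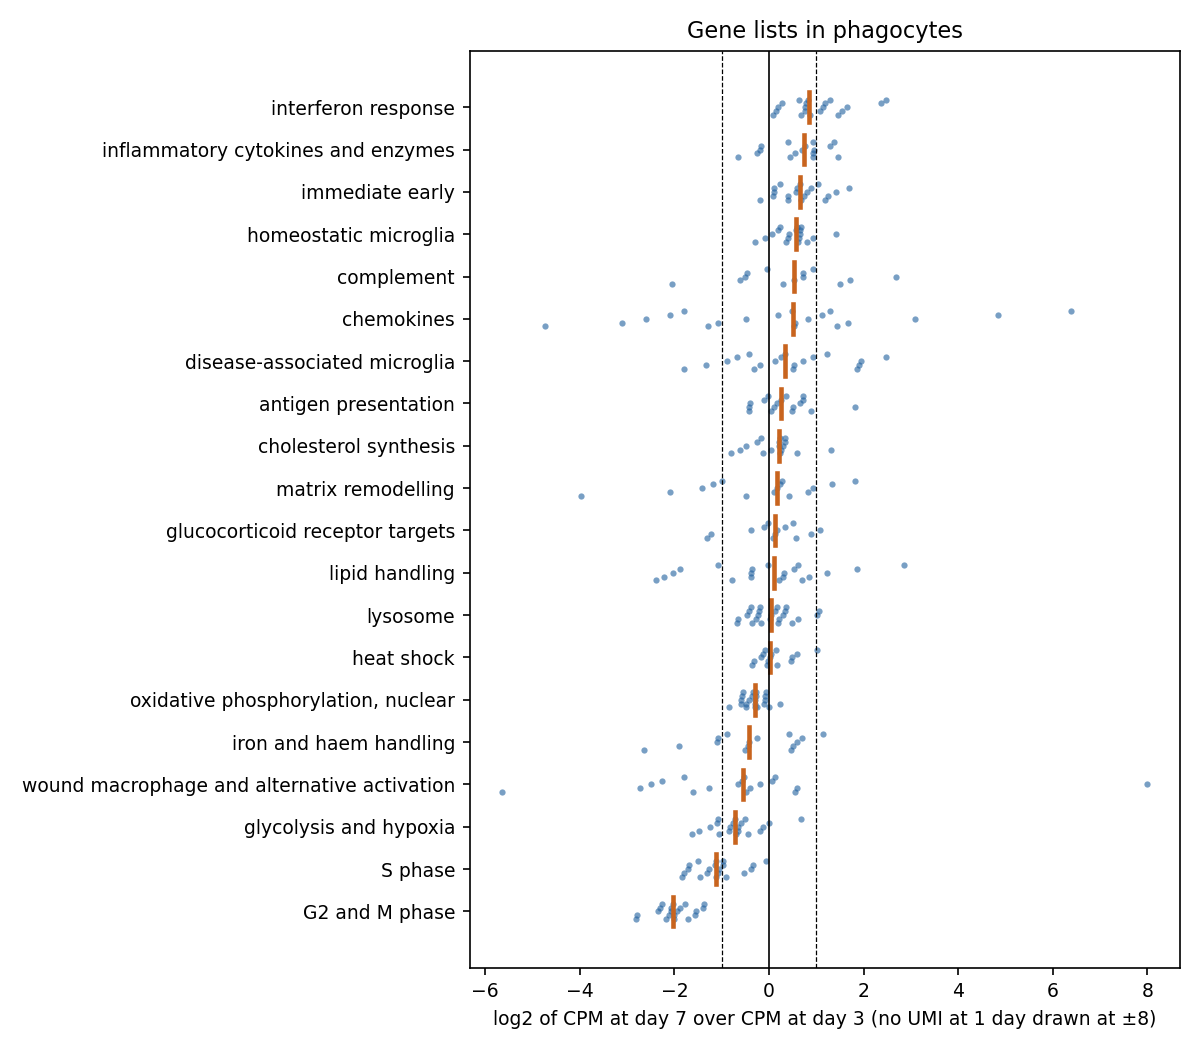
Each blue point is 1 gene of a list in phagocytes, placed by the log2 of its day 7 CPM over its day 3 CPM, and the orange bar is the list's median. Dashed lines mark 2-fold, and genes with no UMI at 1 day are drawn at 8 units. The interferon list has the highest median (0.85) and the G2 and M phase list the lowest (-2.02).

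The microglia-marked and unmarked subsets differed in which lists moved. In microglia-marked cells 216 of 10475 genes (2.06%) were at least 2-fold higher and 404 (3.86%) lower. In unmarked cells 524 of 10599 (4.94%) were higher and 537 (5.07%) lower. The median over all genes was -0.18 in both. The 4 genes that define the subsets sit in the homeostatic list, so its values within a subset are partly set by the split.

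Interferon response genes were among the lists that differed most between the subsets. In microglia-marked cells 15 of 20 were at least 2-fold higher and none lower (median log2 ratio 1.91). In unmarked cells 3 of 20 were higher and 1 lower (median 0.26). Over members with a subset level at least 0.3 of the top class, 8 of 13 were higher in microglia-marked cells (median 1.55). In unmarked cells 1 of 8 such members was higher and 1 lower (median 0.03). Irf7, the factor that amplifies the interferon response, was 12.3 CPM (10.9 to 13.9) at day 3 and 73.3 CPM (68.8 to 78.0) at day 7, 5.95-fold higher (5.18 to 6.85) in microglia-marked cells. The interferon-induced gene Rtp4 was 13.8 CPM (12.2 to 15.4) at day 3 and 55.2 CPM (51.3 to 59.4) at day 7, 4.02-fold higher (3.50 to 4.62) there. A UMI of Irf7 was found in 0.925% and 5.95% of microglia-marked cells after thinning, a minority of cells at this depth. The difference between subsets has no test, since each is 1 sum a day.

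Inflammatory cytokine genes showed the reverse. In unmarked cells 7 of 14 were at least 2-fold higher (median 1.16), and in microglia-marked cells none of 15 (median 0.09). Il1a was 30.4 CPM (28.6 to 32.3) at day 3 and 159 CPM (151 to 167) at day 7, 5.22-fold higher (4.82 to 5.65) in unmarked cells. Tnf was 42.6 CPM (40.4 to 44.8) at day 3 and 191 CPM (182 to 199.7) at day 7, 4.48-fold higher (4.18 to 4.80) there. Cd83, a surface protein of activated myeloid cells, was 4.23-fold higher, and Bcl2a1a, which protects from cell death, 5.15-fold higher. Of 17 homeostatic genes 12 were at least 2-fold higher in unmarked cells, while microglia-marked cells had none of 18. Gpr34 and Siglech, which define the split, are among the 12. C1qa, a gate gene, was 2033 and 5821 CPM in unmarked cells against 7972 and 9663 CPM in microglia-marked cells. Cells whose few microglial UMIs missed the minimum also fall in the unmarked subset, and day 7 cells were shallower. Their part was not tested.

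The apolipoprotein difference was present in both subsets. Apoe was 4.47-fold higher in microglia-marked and 3.66-fold higher in unmarked cells. Apoc1 was 54.1 CPM (51.6 to 56.5) at day 3 and 860.4 CPM (842 to 879.6) at day 7, 15.9-fold higher (15.1 to 16.7) in unmarked cells, and 3.87-fold higher in microglia-marked cells (243 and 939 CPM). Cst7 was 15.8 CPM (14.5 to 17.1) at day 3 and 211 CPM (201 to 220.2) at day 7, 13.4-fold higher (12.1 to 14.7) in unmarked cells. In microglia-marked cells Lag3 was 6.53-fold higher and Ms4a7 4.47-fold higher. After thinning, a UMI of Lag3 was found in 5.62% and 28.4% of microglia-marked cells and in 0.108% and 5.65% of unmarked cells, so its share was higher at day 7 in both. Arg1 and Ccl7 were 37.5-fold lower and 11.0-fold lower in unmarked cells (Arg1 at 1501 and 40.0 CPM).

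The cell cycle difference was greater in microglia-marked cells. All 20 genes of the G2 and M phase list were at least 2-fold lower there (median -2.92), and 14 of 20 in unmarked cells (median -1.12). Ccnb2, a mitotic cyclin gene, was 71.2 CPM (67.7 to 74.9) at day 3 and 7.12 CPM (5.77 to 8.69) at day 7, 10.0-fold lower (8.14 to 12.4). Birc5 was 7.20-fold lower and Stmn1, a tubulin-binding protein of dividing cells, 4.77-fold lower. A UMI of Mki67 or Top2a was found in 13.7% and 2.44% of microglia-marked cells and in 10.5% and 5.59% of unmarked cells, or in 3.99% and 0.732% and in 2.00% and 1.56% after thinning. The intervals of the last pair overlap.

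**Figure D4:**
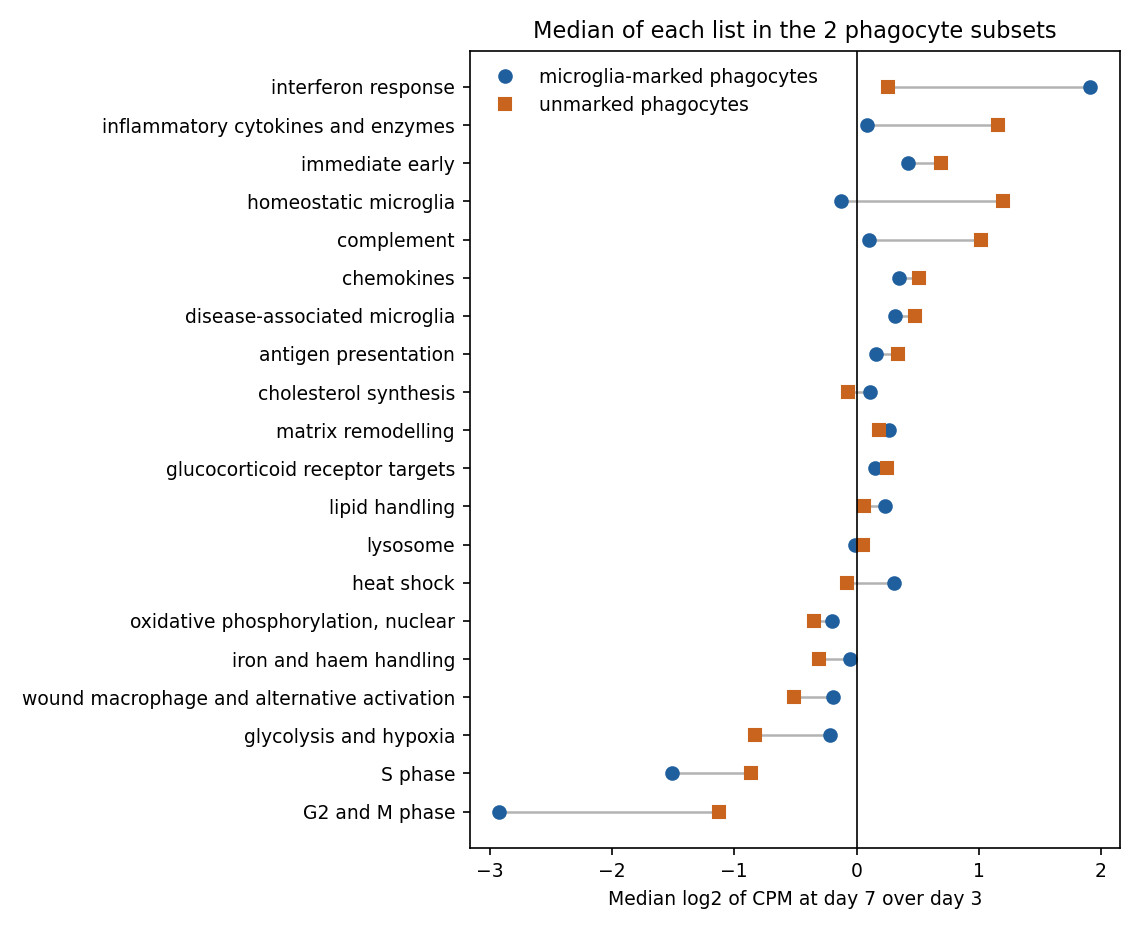
Median log2 ratio of day 7 over day 3 for each gene list, in microglia-marked phagocytes (blue circles) and unmarked phagocytes (orange squares), joined by a grey line. The subsets lie farthest apart for the G2 and M phase list (-2.92 and -1.12) and the interferon list (1.91 and 0.26).

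Endothelial cells at day 7 had more interferon-induced RNA and less RNA of sprouting and dividing vessels. Of 9348 genes measured, 191 (2.04%) were at least 2-fold higher and 251 (2.69%) lower, and the median log2 ratio was 0.01. Of 18 interferon response genes 11 were at least 2-fold higher and none lower (median 1.01). Irf7 was 55.3 CPM (50.03 to 60.9) at day 3 and 234 CPM (218 to 251) at day 7, 4.23-fold higher (3.75 to 4.78). Ifit1, which binds foreign RNA, was 67.3 CPM (61.5 to 73.5) at day 3 and 226 CPM (211 to 243) at day 7, 3.36-fold higher (3.00 to 3.78). The ubiquitin-like modifier gene Isg15 was 155 CPM (146 to 164) at day 3 and 390.2 CPM (369 to 412) at day 7, 2.52-fold higher (2.33 to 2.73). After thinning, a UMI of Isg15 was found in 12.2% and 26.3% of endothelial cells, against 0.291% and 1.49% of ependymal cells. Rsad2 was 2.90-fold higher, but 1 cell held 14.8% of its day 7 UMIs.

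The promoters of these genes are shown because most of the list was higher in endothelial cells and in microglia-marked phagocytes. Interferon acts on many genes through a response element built on a repeat of GAAA, searched here as 2 copies with any 2 bases between them. The windows are rat GRCr8 from RefSeq, 250 bases before to 50 after each start, and both strands were read. They were matched by symbol only to the counts, whose gene names follow mouse conventions. Of the 20 list genes 13 had a window, and 10 of these held the motif at least once, against 1034 of all 27457 windows (3.77%). In each stretch below, printed 5′ to 3′ along the gene, capitals mark the motif, or its reverse complement where it lies on the other strand.
Irf7, chr1:205800068-205800107, minus strand: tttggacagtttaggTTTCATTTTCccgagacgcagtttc
Ifit3, chr1:241527267-241527306, plus strand: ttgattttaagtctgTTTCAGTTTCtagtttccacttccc
Rsad2, chr6:48788243-48788282, minus strand: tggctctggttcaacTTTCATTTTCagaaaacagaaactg
Isg20, chr1:142239952-142239991, plus strand: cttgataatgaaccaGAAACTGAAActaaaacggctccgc
Xaf1, chr10:57415909-57415948, plus strand: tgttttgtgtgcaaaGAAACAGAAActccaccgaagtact
In endothelial cells these genes were 4.23-fold higher, 2.62-fold higher, 2.90-fold higher, 1.83-fold higher and 2.00-fold higher at day 7. Irf9, Mx1 and Stat2 had a window with no match, and endothelial Irf9 and Stat2 were 1.36-fold and 1.24-fold higher. Bst2, Cxcl10, Ifitm3, Oas1a and Oasl2 also held the motif, and their folds are not given here. The values therefore do not compare genes with and without the motif. A match is a description of letters and says nothing about binding.

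Angiogenic genes made up the other side. Of 18 tip cell and angiogenic genes 7 were at least 2-fold lower and none higher (median -0.49). Apln, the peptide ligand of sprouting tip cells, was 70.0 CPM (64.1 to 76.4) at day 3 and 6.77 CPM (4.29 to 10.2) at day 7, 10.3-fold lower (6.81 to 16.5). The growth factor gene Pgf was 50.4 CPM (45.4 to 55.8) at day 3 and 4.71 CPM (2.69 to 7.65) at day 7, 10.7-fold lower (6.50 to 18.9). Plvap, a protein of fenestrated and leaky vessels, was 27.1-fold lower (16.0 and 0.589 CPM), but its day 7 level rests on very few UMIs. Angpt2 was 3.03-fold lower (25 and 8.25 CPM), and the basement membrane collagen gene Col4a1 was 2.11-fold lower (351 and 167 CPM). The levels of Pgf, Angpt2 and Col4a1 were highest in pericytes. Pericyte markers summed to 111 and 54.8 CPM in the endothelial sum, and their part in these differences was not tested.

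None of 20 barrier junction and transporter genes of endothelial cells was past 2-fold (median 0.20), and Cldn5, a gate gene, is among the 20. The glucose transporter gene Slc2a1 was 2192 and 1977 CPM. The largest differences of the list were in Itm2a and Slco1a4, at 1.94-fold higher and 1.72-fold higher. Of 16 leukocyte adhesion and activation genes 1 was at least 2-fold higher (Vcam1) and 2 lower (Selp and Lrg1), with a median of -0.52. Lrg1, a secreted protein of activated vessels, was 230.2 CPM (219 to 241) at day 3 and 90.1 CPM (80.3 to 101) at day 7, 2.55-fold lower (2.26 to 2.89), and the adhesion molecule gene Vcam1 was 2.16-fold higher (153 and 331 CPM). Of 16 artery and vein genes 4 were at least 2-fold higher, led by Gkn3, an arterial gene, at 53.0 CPM (47.8 to 58.5) at day 3 and 222 CPM (207 to 239) at day 7, 4.20-fold higher (3.71 to 4.76). Its thinned share of cells was 3.52% and 7.33% (0.0468% and 0.202% in phagocytes).

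The remaining named endothelial genes were Abhd2, a lipase gene (2.66-fold higher), the immediate early gene Ier2 (2.62-fold higher) and Kdm6b (2.81-fold higher) on the higher side. On the lower side were the tubulin gene Tubb6 (5.78-fold lower), the cytoskeletal adaptor gene Pdlim1 (6.36-fold lower), the intermediate filament gene Vim (2.77-fold lower), Plp2 (2.92-fold lower) and the glycolytic enzyme gene Gapdh (2.51-fold lower). Of 19 immediate early genes 3 were at least 2-fold higher (median 0.71). Gapdh was the only one of 17 glycolysis and hypoxia genes past 2-fold (median -0.42). None of 22 oxidative phosphorylation genes and none of 15 heat shock genes was. Of 14 antigen presentation genes 2 were higher, Cd74 and H2-Aa (2.87-fold higher and 2.07-fold higher), but 1 cell held 47.1% and 57.7% of their day 7 UMIs. Phagocytes carry both genes too, at 841 and 785 CPM and 292 and 217 CPM, and the part of phagocyte RNA was not tested. All 16 measured G2 and M phase genes were at least 2-fold lower (median -3.29), as were 9 of 18 S phase genes (median -0.98). None of these 16 and 4 of these 18 genes had an endothelial level at least 0.3 of that in the top class. A UMI of Mki67 or Top2a was found in 5.00% of endothelial cells at day 3 and 0.426% at day 7 (1.09% and 0.256% thinned, with intervals that overlap).

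Ependymal cells had more RNA of motile cilia genes at day 7 and less RNA of most reactive and progenitor glia genes measured. Of 5463 genes 202 (3.70%) were at least 2-fold higher and 373 (6.83%) lower (median 0.02). The ependymal gate took cells with at least 1 Foxj1 UMI at any depth. The median ependymal cell held 3668 UMIs at day 3 and 2393 at day 7, and the part of the gate in the values below was not tested. Of 20 motile cilia genes 6 were at least 2-fold higher and none lower (median 0.87), and Foxj1, the gate gene, is among the 20. The 6 were Ccdc153, Tmem212, Enkur and Cfap52, genes of ciliated cells, and Mia and Rarres2, which encode secreted proteins and no part of the cilium. Ccdc153 and Tmem212 were 2.70-fold higher (636 and 1720.2 CPM) and 2.61-fold higher (534 and 1392 CPM). Mia was 1227 CPM (1175 to 1281) at day 3 and 4158 CPM (3989.7 to 4332) at day 7, 3.39-fold higher (3.19 to 3.60). Rarres2, which encodes the chemoattractant chemerin, was 794 CPM (752 to 837) at day 3 and 2639 CPM (2505 to 2778) at day 7, 3.32-fold higher (3.09 to 3.58). Ucma and H4c8 were 7.69-fold higher and 3.94-fold higher.

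Of 17 reactive and progenitor glia genes 12 were at least 2-fold lower in ependymal cells and none higher (median -1.45). Crym, a binding protein of thyroid hormone, was 423 CPM (393 to 455) at day 3 and 3.63 CPM (0.439 to 13.1) at day 7, 117-fold lower (32.2 to 966). Only 2 Crym UMIs remained at day 7, hence the wide interval. The galectin gene Lgals1 was 1736 CPM (1674 to 1799) at day 3 and 76.1 CPM (54.9 to 103) at day 7, 22.8-fold lower (16.8 to 31.7). Vim was 6114 CPM (5997 to 6232) at day 3 and 1572 CPM (1469 to 1679.7) at day 7, 3.89-fold lower (3.63 to 4.17). The matrix protease inhibitor gene Timp1 was 19-fold lower (276 and 14.5 CPM), while the filament gene Gfap stayed at 649.8 and 524 CPM. Sox9, Socs3 and Sox4, also members of the list, had ratios of 1.24, 0.90 and 0.86. Of 8 G2 and M phase genes 7 were at least 2-fold lower (median -3.36), and Top2a was 10.4-fold lower. Ube2c was 42.5-fold lower with 1 UMI at day 7. Cenpa had no UMI at day 7 and was at least 12.9-fold lower. Of 11 S phase genes 2 were lower (median -0.13), and of 19 immediate early genes Klf6 alone was lower (median 0.06).

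OPC, at 100 and 73 cells, carried wider intervals. Of 2985 genes 88 (2.95%) were at least 2-fold higher and 191 (6.40%) lower (median 0.00). Of 16 OPC identity genes 4 were at least 2-fold higher and none lower (median 0.64), and Pdgfra, the gate gene, is among the 16 at 1.89-fold. The OPC gate took cells with at least 2 Pdgfra UMIs at any depth. The median OPC held 5148 UMIs at day 3 and 2662 at day 7, and the part of the gate in these values was not tested. Lhfpl3, a gene typical of OPC, was 320.2 CPM (279.7 to 365) at day 3 and 769 CPM (652 to 900.5) at day 7, 2.40-fold higher (1.94 to 2.96). The receptor phosphatase gene Ptprz1 was 585 CPM (529.6 to 644) at day 3 and 1256 CPM (1105 to 1422) at day 7, 2.15-fold higher (1.83 to 2.52). The lineage factor gene Olig2 was 569 and 598 CPM. Of 11 reactive glia genes 8 were at least 2-fold lower and none higher (median -2.10). The list was not lower in glia alone. Its medians were -1.26 in phagocytes (9 of 17 genes at least 2-fold lower), -0.91 in endothelial cells (6 of 14) and -0.88 in neutrophils (3 of 8). In fibroblasts the median was 0.04. In OPC, Lgals1 was 2459 CPM (2344 to 2578) at day 3 and 306 CPM (234 to 394) at day 7, 8.02-fold lower (6.22 to 10.5). Serpina3n, a protease inhibitor of reactive glia, was 794 CPM (729 to 863) at day 3 and 100.5 CPM (61.4 to 155) at day 7, 7.90-fold lower (5.07 to 13). Vim was 12.6-fold lower (694 and 55.3 CPM). Fibroblasts had the highest level of Lgals1, S100a6 and S100a10 of this list. Fibroblast markers in the OPC sum were 423 and 45.2 CPM, and their part in these differences was not tested.

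Cell cycle RNA was also lower in OPC. Of 15 G2 and M phase genes 12 were at least 2-fold lower (median -1.20), though Top2a itself was 132 and 141 CPM, with 35.7% of its day 7 UMIs in 1 cell. A UMI of Mki67 or Top2a was found in 36.0% of OPC at day 3 and 11.0% at day 7 (13% and 6.85% thinned, with intervals that overlap). Of 11 S phase genes 3 were lower (median -0.77), and of 15 immediate early genes Nr4a1 was higher and Egr1 lower (median -0.09). Syt4, Tubb6 and S100a10 were 7.93-fold lower, 4.82-fold lower and 4.09-fold lower. The genes on the higher side were Scand1 (5.81-fold higher), Emid1 (3.33-fold higher), Abhd2 (3.30-fold higher), the adhesion molecule gene Ntm (2.88-fold higher) and Grcc10 (2.85-fold higher). Among the 4 measured myelin genes Cldn11 was 509 CPM (458 to 565) at day 3 and 50.2 CPM (24.1 to 92.4) at day 7, 10.1-fold lower (5.45 to 21.3). Its level was highest in fibroblasts, whose markers in the OPC sum are given above.

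Fibroblasts had more RNA of several collagen and matrix genes and less of G2 and M phase genes at day 7. Of 4531 genes 277 (6.11%) were at least 2-fold higher and 345 (7.61%) lower (median -0.06). Of 16 collagen genes 6 were at least 2-fold higher and none lower (median 0.72), and Col1a1, the gate gene, is among the 16 at 1.97-fold. Col15a1, a collagen of basement membrane zones, was 14.5 CPM (8.96 to 22.1) at day 3 and 171 CPM (136 to 212) at day 7, 11.8-fold higher (7.25 to 20.1), with 28.0% of its day 7 UMIs in 1 cell. Col4a1 and Col4a2, the basement membrane collagen chains, were 4.92-fold higher and 4.08-fold higher. The fibrillar collagen gene Col3a1 was 4286 CPM (4179.8 to 4394) at day 3 and 5565 CPM (5355 to 5779.9) at day 7, 1.30-fold higher (1.24 to 1.36), short of 2-fold. Endothelial markers, whose cells also make basement membrane collagen, summed to 174 and 678 CPM in the fibroblast sum. Pericyte markers summed to 345 and 593 CPM there, and pericytes had the highest level of Col4a1, Col4a2 and Col18a1. The part of either was not tested.

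Of 18 matrix glycoprotein and crosslinking genes 7 were at least 2-fold higher and 1 lower (median 0.55). The microfibril gene Mfap4 was 98.6 CPM (83.1 to 116) at day 3 and 580.2 CPM (514 to 653) at day 7, 5.89-fold higher (4.79 to 7.25). The small proteoglycans Lum and Dcn were 3.24-fold higher (225 and 728 CPM) and 2.85-fold higher (1852 and 5283 CPM), and the crosslinking enzyme gene Loxl3 was 2.24-fold lower. Of 8 matrix remodelling genes 3 were higher (Mmp13, Mmp2 and Timp3) and 3 lower, Timp1 and Plaur among them, with a median of 0.68. The collagenase gene Mmp13 was 8.27 CPM (4.27 to 14.4) at day 3 and 290.1 CPM (244 to 343) at day 7, 35.1-fold higher (19.5 to 69.5), but 1 cell held 51.8% of its day 7 UMIs. Of 9 contractile and mural genes 3 were lower, among them Tagln and Acta2 (4.12-fold lower and 2.22-fold lower). The 2 higher were Vtn and Ndufa4l2 (7.42-fold higher and 2.28-fold higher), and 1 cell held 28.3% of the day 7 Vtn UMIs. Pericytes had the highest level of each of these genes, and their part was not tested. Only 2 of the 9 had a fibroblast level at least 0.3 of that in the top class. In fibroblasts, Timp1 was 2243 CPM (2166 to 2321) at day 3 and 474 CPM (414 to 539.6) at day 7, 4.73-fold lower (4.14 to 5.44).

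The 5 named fibroblast genes on the higher side were Clec3b, Pi16, Myoc, Cd34 and Lypd2. Clec3b was 11.7 CPM (6.83 to 18.8) at day 3 and 943 CPM (858 to 1035) at day 7, 80.5-fold higher (49.7 to 139). Pi16 was 111 CPM (94.5 to 129) at day 3 and 1909.8 CPM (1788 to 2038) at day 7, 17.2-fold higher (14.5 to 20.5). Myoc had no UMI at day 3 and stood at 422 CPM at day 7, at least 204-fold higher against a floor of 3 counts. Cd34 was 10.2-fold higher and Lypd2 30.8-fold higher. A single cell held up to 13.9% of the day 7 UMIs of these 5 genes. On the lower side, Prok2, a secreted chemoattractant, was 368 CPM (337 to 401) at day 3 and 18.8 CPM (8.59 to 35.7) at day 7, 19.6-fold lower (10.2 to 43.1). The cell division genes Birc5 and Cdc20 had no UMI at day 7 and were at least 25.4-fold lower and at least 14.1-fold lower, and Cks2 was 16.8-fold lower. All 10 measured G2 and M phase genes were at least 2-fold lower, and 7 of 11 S phase genes were (median -1.78). A UMI of Mki67 or Top2a was found in 31.9% of fibroblasts at day 3 and in 0 of 102 at day 7, which allows a share of cells with such a UMI of up to 2.94% (exact upper limit 3.55%). The median fibroblast held 12373 UMIs at day 3 and 4534 at day 7. After thinning the shares were 5.31% (1.97% to 11.2%) and 0 of 102, and the intervals overlap.

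Neutrophils at day 7 carried more secondary granule RNA and less RNA of activated tissue neutrophils. Of 1919 genes 92 (4.79%) were at least 2-fold higher and 447 (23.3%) lower, and the median was -0.54. This split depends on the scaling, because S100a8 and S100a9 together took 16.0% of neutrophil UMIs at day 3 and 32.7% at day 7. With trimmed-mean scaling the counts were 217 higher and 144 lower, and with median-of-ratios scaling 213 and 152. With the total taken without these 2 genes, a setting chosen after seeing the data, they were 147 and 230. These settings move every neutrophil log2 ratio up by 0.56, 0.54 and 0.32, and the folds below are on the unshifted scale.

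Of 10 secondary granule genes 8 were at least 2-fold higher and none lower (median 1.21). Camp, an antimicrobial protein made in the bone marrow stage, was 17042 CPM (16648 to 17443) at day 3 and 42434 CPM (41966 to 42907) at day 7, 2.49-fold higher (2.43 to 2.56). Ngp, another granule protein of that stage, was 15241 CPM (14869 to 15620.2) at day 3 and 40948 CPM (40488 to 41412) at day 7, 2.69-fold higher (2.61 to 2.76). The iron-binding granule protein gene Ltf was 2.34-fold higher (1954 and 4568 CPM). Primary granule genes, made at an earlier stage, had none of 6 past 2-fold on this scale (median 0.52). The log2 ratios of Mpo, Ctsg, Ms4a3 and Elane were 0.91, 0.65, 0.55 and 0.48. These genes do pass 2-fold with the trimmed-mean and median-of-ratios shifts given above. In this list 1 cell held 50.2% of the day 7 UMIs of the elastase gene Elane and 59.1% of those of Mpo, so these values rest on few cells. Of 15 maturity and tissue entry genes 10 were at least 2-fold lower and none higher (median -1.58). The chemokine gene Cxcl2 was 1937 CPM (1806 to 2076) at day 3 and 322 CPM (283 to 366) at day 7, 6.01-fold lower (5.19 to 6.97). The cytokine gene Il1b was 1815 CPM (1688 to 1949) at day 3 and 369.9 CPM (327 to 416) at day 7, 4.91-fold lower (4.27 to 5.66). Csf3r, the receptor for granulocyte growth factor, was 3.81-fold lower (295 and 77.2 CPM). Of 7 inflammatory cytokine and enzyme genes 3 were lower (Il1b, Nlrp3 and Tnf) and none higher (median -0.72).

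The named neutrophil genes included Csf1 (16.1-fold lower), the lectin receptor gene Clec4n (14.1-fold lower), the signalling subunit gene Gngt2 (12.7-fold lower), the protease inhibitor gene Cstb (8.10-fold lower) and Emp1 (17.7-fold lower) on the lower side. On the higher side were Tmcc1 (3.91-fold higher), Ldhc (5.17-fold higher), Zfp131 (10.5-fold higher), Krt83 (3.92-fold higher) and Smc2, a chromosome condensation gene (5.09-fold higher). A UMI of Mki67 or Top2a was found in 5.97% of neutrophils at day 3 and 19.9% at day 7 (2.24% and 9.22% thinned, with intervals that overlap), and 3 of 6 measured G2 and M phase genes were at least 2-fold higher. Apoe stood at 6892 and 4273 CPM and Spp1 at 7707 and 854 CPM within the neutrophil sum. Both are phagocyte genes, and the part of phagocyte RNA in the day 3 neutrophil values was not tested.

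**Figure D5:**
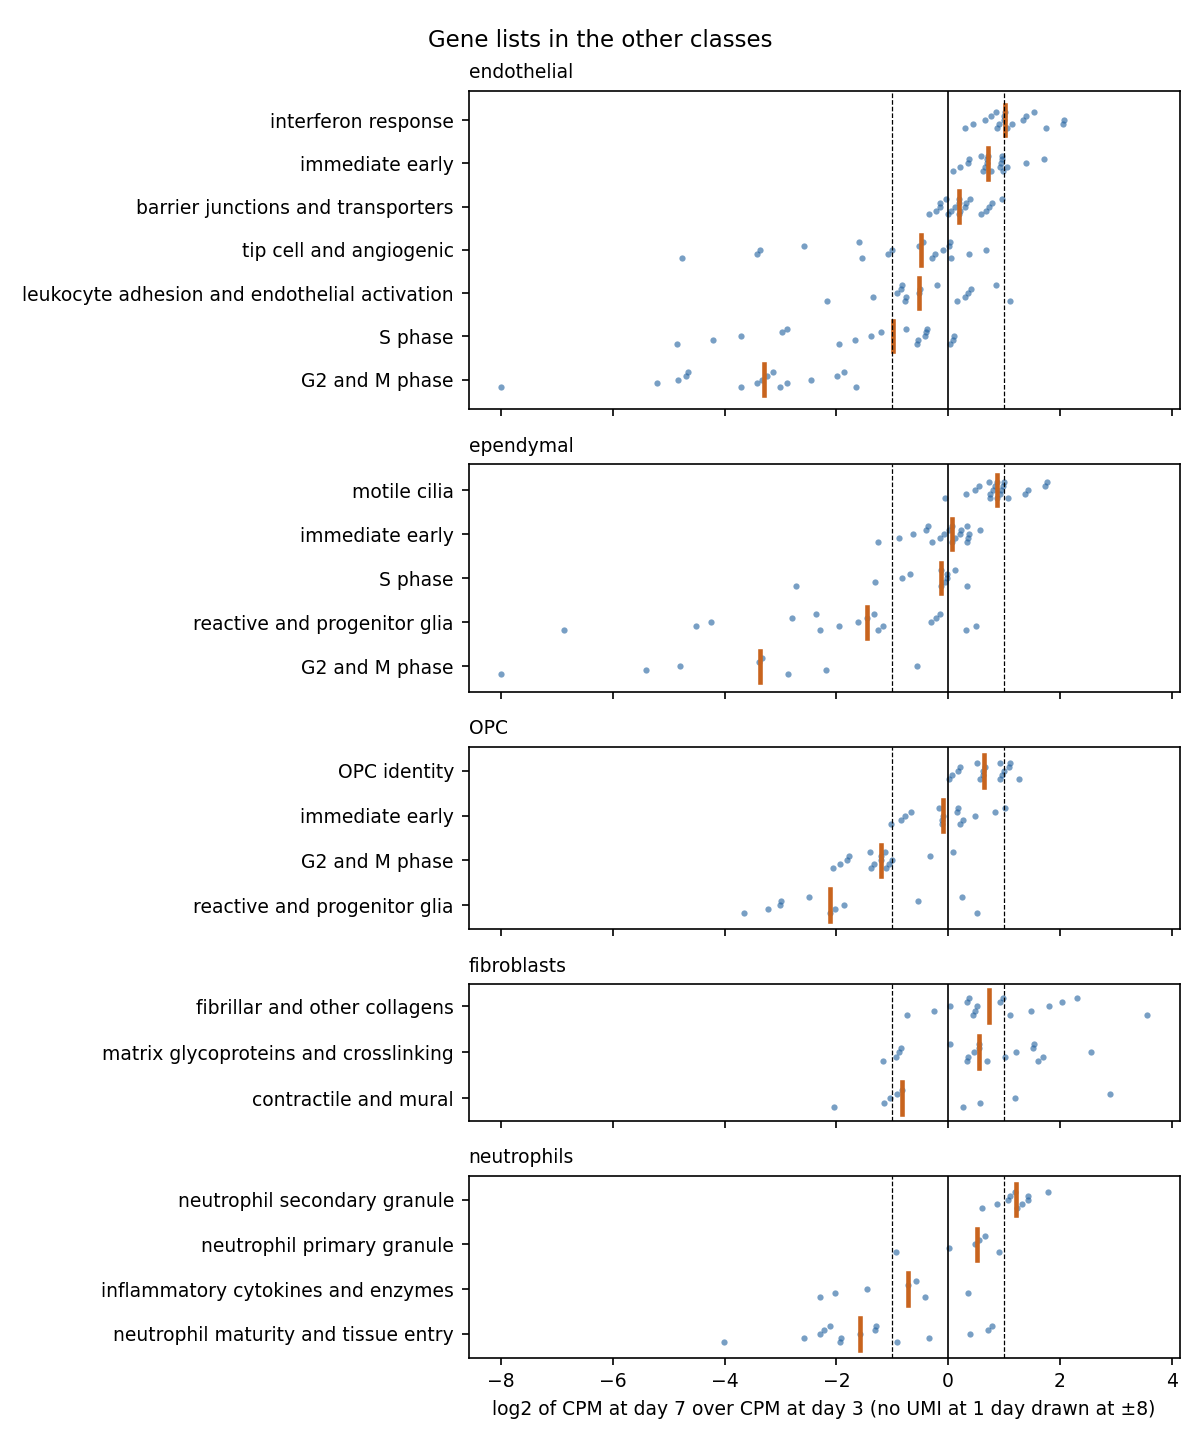
Each blue point is 1 gene of a list in the class named above the panel, placed by the log2 of its day 7 CPM over its day 3 CPM, and orange bars are list medians. Dashed lines mark 2-fold, and genes with no UMI at 1 day are drawn at 8 units. The G2 and M phase medians are -3.29 in endothelial cells, -3.36 in ependymal cells and -1.20 in OPC, and the neutrophil values are before any shift for S100a8 and S100a9.

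Some genes moved alike in classes with little else in common. Of 3904 genes measured in at least 4 of the 6 classes, 3 were at least 2-fold higher in every class measured (Gm47283, Rarres2 and S100a9) and 14 at least 2-fold lower. The 14 were Arg1, Timp1 and 12 genes of cell division, among them Ccnb1, Prc1 and Tk1. None of these 12 genes reached 50 UMIs in neutrophils. In endothelial cells Apoe was 1893 and 5697 CPM, 7.91% and 6.54% of the phagocyte levels. In ependymal cells it was 2215 and 6935 CPM, 9.25% and 7.96% of them. Its ratio was 3.01 and 3.13 there, against 3.64 in phagocytes. S100a8 was 32.5 and 292 CPM in endothelial cells and 47.2 and 305 CPM in ependymal cells, similar low levels in classes that are not neutrophils. Arg1 in endothelial cells was 27.2 and 0.883 CPM. Free RNA in droplets was not removed, and its part in these values was not tested. Scand1 was higher in all 6 classes, by 1.85-fold to 6.03-fold, and Kdm6b by 1.24-fold to 4.49-fold. Lgals1 and Vim were lower in all 6, at 0.0439 to 0.661 and 0.0796 to 0.545 of the day 3 level. With 1 library a day, a difference shared by all classes cannot be told apart from a difference between the libraries.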

How the data were processed

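Cells of 6 droplet libraries were deposited as tables of UMI counts per gene and cell, made with Cell Ranger 3.0.2 per the submitters' processing notes. The genome build, annotation, cell calling and filters are not given in the sources used here, and the labels name both a v3 reagent kit and a v2 gel bead kit. Of these libraries, those of days 3 and 7 were analysed here, each 1 library, so no test was made.

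All cells of both libraries were kept. Cells were gated into 7 classes by minimum UMIs and, after the slash, UMIs per 10000 of the cell: Tyrobp with C1qa 3 / 20, Cldn5 with Flt1 2 / 5, Foxj1 1 / 0, Pdgfra 2 / 0, Col1a1 2 / 5, Rgs5 3 / 10 and S100a8 10 / 100. A cell meeting both the Pdgfra and Col1a1 gates was a fibroblast. A cell meeting the S100a8 gate with C1qa under 10 per 10000 was taken out of the phagocyte gate. Other cells meeting more than 1 gate were set aside, and no doublet caller was run. The UMIs of each class were added up in each library and divided by their total to give CPM. The 95% intervals cover counting error only, and are exact: binomial for a ratio of 2 sums, Poisson for a level and Clopper-Pearson for a share of cells. Genes with at least 50 UMIs over both sums were measured, a difference of 2-fold was counted, and a sum of 0 was set to a floor of 3 counts for a bound. Shares of cells with a UMI were also computed after thinning each cell to 1000 UMIs, a depth that every cell reached.

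Named genes had at least 50 CPM in the higher library, a level of at least 0.3 of the top class and no cell with over 20% of their UMIs there. Mitochondrial, ribosomal, haemoglobin, unnamed and gate genes and other classes' markers were left out. They were ranked by the log2 ratio with 10 CPM added, 12 each way in phagocytes and each subset, 8 in endothelial cells and 5 elsewhere, and joined by the 3 members of each list that differed most. A few genes that the rule selects are not reported here. Other members were named to show a list's range, after their values were seen. The members and the 34 gene lists were chosen with earlier results of these data known.

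Python 3.11.15, numpy 2.4.6, scipy 1.17.1, pandas 2.3.3 and R 4.3.3 were used, with edgeR 4.0.16 for TMM factors in an alternative scaling only. The code was tested on simulated data. Other scalings, minimums, gates, cell filters and thinning were tried as alternatives.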

Additional observations from a re-analysis of the deposited data

Results flagged for a closer look

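Some genes differed by at least 2-fold in opposite directions in 2 classes, and these differences between classes were not tested. Egr1, an immediate early gene, had a day 7 over day 3 ratio of 3.23 in phagocytes and 0.495 in OPC. Pi16, a fibroblast gene, had a ratio of 17.2 in fibroblasts and 0.128 in OPC. Fibroblast markers in the OPC sum were 423 CPM at day 3 and 45.2 CPM at day 7, and their part in the OPC value was not tested. Csf1, the growth factor of macrophages, had a ratio of 2.04 in fibroblasts and 0.0621 in neutrophils.

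The cell division genes Birc5, Ube2c and Smc2 are 3 further examples. Birc5 had a ratio of 2.63 in neutrophils and 0.26 in OPC, and was at least 25.4-fold lower in fibroblasts. Ube2c had a ratio of 2.35 in neutrophils, 0.383 in OPC and 0.0142 in fibroblasts. Smc2 had a ratio of 5.09 in neutrophils and 0.216 in ependymal cells, and was at least 11.2-fold lower in fibroblasts.

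Cells that met no gate enter no comparison, yet many carried markers of glia. At least 2 UMIs of astrocyte markers were found in 48.7% of them at day 3 and 36.9% at day 7. For ependymal markers the shares were 40.1% and 40.8%, and for OPC markers 21.0% and 34.5%. In phagocytes, the background for these lists, the day 3 shares were 3.95%, 0.593% and 1.51%.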

How the results depend on the processing

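No paired analysis was possible because each group has 1 library, and leaving out a replicate was not possible either. Pericytes had under 50 cells at day 7, so the planned counts of their genes were not run. Of 1107 alternative values for the 77 named genes at least 2-fold apart, 1106 kept their direction and 1099 stayed past 2-fold. Genes with no UMI at 1 day give no ratio and are not among them. The exception was Pf4, whose log2 ratio was 0.52 in microglia-marked phagocytes alone. Of 148 alternative values for 10 lists with a median past 2-fold, 148 kept their direction and 136 stayed past it.

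Counts of genes, given as higher and lower at day 7, moved most with the minimum, which changes how many genes are tested. With 20 UMIs, 687 were higher in phagocytes, and the pairs were 344 and 470 in endothelial cells, 464 and 884 in ependymal cells, 325 and 570 in OPC, 666 and 715 in fibroblasts and 194 and 1040 in neutrophils. With 200 UMIs, 193 were higher in phagocytes, and the pairs were 86 and 73, 49 and 111, 12 and 36, 75 and 96, and 28 and 118 in the same order. With no minimum they were 2571 and 2449 in phagocytes, then 2214 and 2326, 2059 and 3533, 2009 and 3824, 2912 and 2950, and 2274 and 3928. With cells thinned to 1000 UMIs, which leaves fewer UMIs, they were 205 and 385 in phagocytes, then 89 and 55, 38 and 62, 6 and 21, 45 and 40, and 51 and 235.

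Microglia-marked phagocytes alone gave 216 and 404. In ependymal cells 131 were higher with the total taken without mitochondrial and ribosomal genes and 102 with the mean over cells, and leaving out the 5% of cells with the most UMIs gave 119 and 236. In OPC 56 were higher with TMM scaling and 48 with doubled gate minimums. Neutrophils gave 217 and 144 with TMM scaling, 213 and 152 with median-of-ratios scaling, and 147 and 230 without S100a8 and S100a9 in the total, the last chosen after seeing the data.

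The ratio of shares of phagocytes was 0.902 with halved gate minimums, but 1.10 with doubled ones, 1.13 with at least 2 UMIs each of Tyrobp and C1qa and 1.03 with gates on thinned cells. Halved and doubled minimums gave 0.597 and 0.562 for ependymal cells. Doubled minimums gave 0.297 for OPC and 2.47 for neutrophils, and thinned gating 1.37 for OPC. The cause was not tested for these shifts.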
